A study of Homo sapiens with 12 samples.

Results

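Ribosome biogenesis factors are the proteins that make, trim, modify and assemble the ribosome without being part of the finished particle. A list of 41 such genes was followed in differentiated Caco-2 cells exposed to silver. A gene was taken as measured where the platform annotation mapped a probe set to its symbol alone, and its probe set with the highest mean over the 12 arrays was used. This gave 36 genes of the 41, among 19775 genes in all. NOP56, DKC1 and BOP1 were left out because each of their annotated probe sets also lists other genes, and no probe set was assigned to GNL3 or DDX18 in the annotation used here. The mean level thus chose the probe sets, and levels are given as a description only. The list was proposed with results of these data known, so its direction is not independent evidence.

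Caco-2 is an established line from a human colon carcinoma, and left confluent for weeks it resembles the absorptive cells of the small intestine. The cells, at passage 22, were used 21 days after confluence and kept for 24 h in medium with insulin, transferrin, selenium and antibiotics, which all groups shared. There were 4 groups of 3 arrays: medium alone (the control), AgPURE surfactant-coated silver nanoparticles at 2.5 µg/mL, the same particles at 25 µg/mL, and silver ions from AgNO3 at 0.5 µg/mL. No group received the surfactant alone, and nothing in the labels tells whether replicate arrays stem from different flasks. The p-values therefore reflect only how far these arrays scatter, which may be technical. In bulk RNA, fewer cells of a type and less RNA per cell cannot be told apart.

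Ribosome synthesis starts in the nucleolus, where RNA polymerase I copies the ribosomal DNA into one long precursor RNA. Small nucleolar ribonucleoproteins (snoRNPs) of the box C/D and box H/ACA kinds guide its methylation and pseudouridylation. A large assembly called the small subunit processome folds and cuts the part that becomes the small subunit, while a separate chain of factors, among them the PeBoW complex, builds the large subunit. Many of the genes have a MYC binding sequence, the E-box, close to their start, and the pathway is active in growing cells of the intestinal crypt.

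Because the members moved together at the higher nanoparticle dose, as described below, their promoters were read from RefSeq (GRCh38.p14). Of the 36 measured members, 32 had a window of 250 bases before and 50 bases after the annotated start, and NOP58, NOLC1, RRP1B and RRP12 had no entry. The E-box CACGTG was found in 13 of the 32 windows (40.6%) and in 8.55% of the 15384 windows of all measured genes. In these 13 genes it occurred 14 times, with its first base between 89 bases before and 35 bases after the start. In 11 cases the first base lay after the start, and distances below are counted to that base. For 29 of the 32 members the annotated start matched the boundary of the gene in RefSeq. The sites are printed below on the strand of the gene with the E-box in capitals and 12 bases on either side, to show how the same 6 bases sit in otherwise different sequence.
UTP20: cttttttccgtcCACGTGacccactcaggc
RRP9: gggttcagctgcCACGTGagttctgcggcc
WDR43: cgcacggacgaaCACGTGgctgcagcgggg
FBL: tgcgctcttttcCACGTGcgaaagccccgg
PNO1: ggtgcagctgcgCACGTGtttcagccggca
PES1: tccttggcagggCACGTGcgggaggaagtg
MRTO4: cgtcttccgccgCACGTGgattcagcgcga
BYSL: ttcttcagtcccCACGTGcgatccttcccg
The UTP20 site lies at chr12:101280083-101280112 (plus strand), 10 bases before the start, and the MRTO4 site at chr1:19251807-19251836 (plus strand), 14 bases after it. The RRP9 site lies at chr3:51941892-51941921 (minus strand), and its E-box begins 5 bases before the start and reaches it. The BYSL site lies at chr6:41921515-41921544 (plus strand), 28 bases after the start. The other genes with an E-box in the window were NOP2, NOP14, UTP18 (2 sites), GNL2 and LTV1. The windows of NOP2, NOP14 and UTP18 also overlapped another annotated gene.

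A longer stretch before the start of UTP20, a large scaffold protein of small subunit assembly, shows the setting of its E-box. It covers 120 bases at chr12:101279985-101280104 (plus strand) and ends at the base before the start.
UTP20 upstream: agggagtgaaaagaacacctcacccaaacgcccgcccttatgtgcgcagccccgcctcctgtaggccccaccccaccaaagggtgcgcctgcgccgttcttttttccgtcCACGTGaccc

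The core of the ETS family motif, CCGGAAG, was found on either strand in 15 of the 32 windows (46.9%) and in 14.2% of all windows. In NOP16 the motif occurred on both strands in partly overlapping bases, and only the match on the strand of the gene is in capitals below. Some of the strongest risers without an E-box carried it, and their sites are shown with the motif in capitals.
RRP15: tgtcaggtgacgCTTCCGGcgcagaaaaat
NOP16: tgtgcacgccttCCGGAAGgagtttgttac
GRWD1: ggaaagcgaaacCCGGAAGtgacgctctta
GAR1: attgccgcagcaCTTCCGGgacgtcgtgct
NIP7: aacgtcacttccCTTCCGGaccacaagggg
The RRP15 site lies at chr1:218285289-218285318 (plus strand) and the GRWD1 site at chr19:48445947-48445976 (plus strand). The window of NOP16 also overlapped ARL10 and HIGD2A, that of NIP7 COG8 and that of GAR1 GAR1-DT. Which gene a site belongs to was not tested. At least one of these motifs was present in 24 of the 32 windows and both were present in 4, whereas 21.3% of all windows held either.

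Other motifs were searched on both strands in the same way. The related sequence CACGCG was in 31.2% of members' windows and 14.8% of all windows. The NRF1 motif was in 3 members (9.38%, against 1.71% of all) and the YY1 motif in 3 (9.38%, against 1.40% of all). The metal response element core TGCNCNC was in 59.4% of members' and 60.4% of all windows, and the antioxidant response element core TGACNNNGC in 12.5% and 14.7%. The TATA box TATAAA was in 6.25% and 9.03%. The AP-1 motif TGACTCA (3.93% of all) and the heat shock element (0.436% of all) were in 0 of the 32. The median GC content was 62.7% in both sets, while the median count of CG pairs per window was 25 in members and 22 in all genes. These matches describe letters in a window and are not evidence of binding.

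The data behind the expression results are deposited log2 values per probe set, 1 column per array. At 25 µg/mL HMOX1, the haem-degrading enzyme haem oxygenase 1, rose with a log2 fold change of 4.10, and all 5 genes listed as signs of exposure rose. At 2.5 µg/mL 0 of these 5 were called, with log2 fold changes from -1.19 to 0.10 and a median of -0.13. With silver ions 0 were called either, with values from -0.59 to 0.10 and a median of -0.06. Pearson's r over probe sets was 0.992 to 0.996 within groups and 0.978 to 0.981 for pairs of a medium and a 25 µg/mL array. The epithelial gene CDH1 lay at percentile 99.2 of all genes in medium. Brush border genes were spread widely, with VIL1 at percentile 93.6, DPP4 at 89.4, ALPI at 51.3, ANPEP at 20.9 and SI at 6.1. Of the leukocyte list PTPRC lay at percentile 17 but LYZ at 82.8 and CD14 at 51.1, and of the fibroblast list COL1A1 lay at 84.9 and PDGFRA at 76. The spike-in controls stood apart at 25 µg/mL, the 24 poly-A probe sets by 0.61 and the 18 hybridization probe sets by 0.43 above medium on the log2 scale. Scaling the arrays on them therefore moved the median of all genes from -0.01 to -0.62 or -0.44, and directions below are relative to the deposited normalization.

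At 25 µg/mL nanoparticles, 32 of the 36 ribosome biogenesis factors rose against medium, 1 (NHP2) fell, and 3 (NPM1, NOB1 and WDR12) did not pass the test. Of all 19775 genes 14.1% were called higher and 19.3% lower (limma, Benjamini-Hochberg adjusted p under 0.05 over all genes). The median log2 fold change of the members was 0.62 and that of all genes -0.01. A log2 fold change of at least 0.5 was reached by 26 members (6.27% of all genes). Only 4 members passed 2-fold (1.23% of all genes did so in this direction). The members' places in the order of all genes by change had a median at percentile 95.9, and 29 of 36 lay at or above percentile 90. With poly-A scaling, 2 members were called higher (RRP15 and NOP58) and 4 lower, and with hybridization scaling 13 higher and 3 lower, with medians of 0.01 and 0.19. Such scaling shifts every gene of an array alike, so under both 35 of 36 members stayed above the median of all genes and the gap between the medians stayed 0.63.

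The 3 arrays at 25 µg/mL gave nearly the same picture. The median over members of the difference from the medium mean was 0.63, 0.68 and 0.63 on replicates 1, 2 and 3, with 35 of 36 members above the medium mean on each. On the 9 other arrays this median lay between -0.05 and 0.03. For 33 members the lowest value at 25 µg/mL was above the highest medium value, and for NHP2 the order was reversed (19.8% and 25.9% of all genes). The median over members of the SD within a group (n = 3) was 0.07 in medium and 0.05 at 25 µg/mL.

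**Figure D1:**
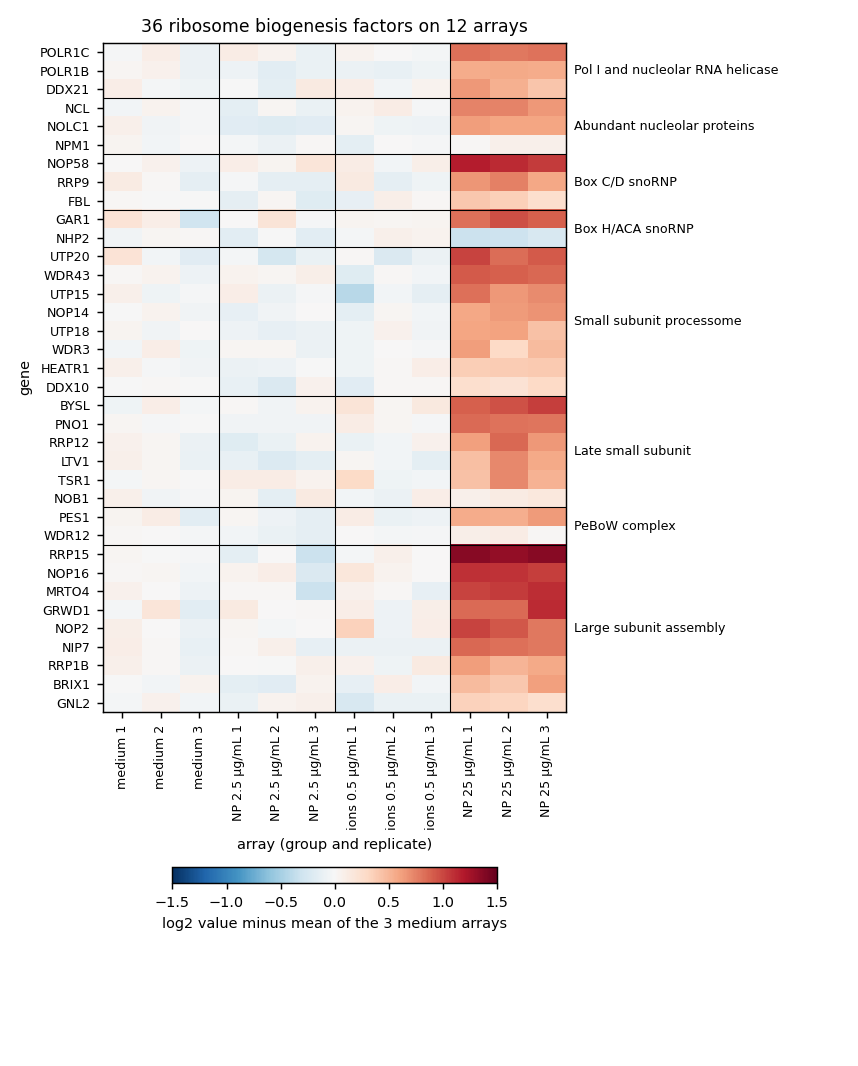
Colour gives the log2 value of each of 36 genes (rows, grouped by role) on each of 12 arrays (columns) minus the mean of the 3 medium arrays. The 3 columns at 25 µg/mL are red in nearly every row, with array medians of 0.63 to 0.68, NHP2 is blue there, and the 9 other columns stay pale.

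RNA polymerase I and a nucleolar helicase come first in the pathway. POLR1C, a subunit that RNA polymerases I and III share, read 7.97, 8.08 and 7.89 in medium and 8.81, 8.78 and 8.79 at 25 µg/mL. The groups did not overlap, and the change was 1.76-fold (log2 fold change 0.81 ± 0.08 SE, adjusted p = 4e-06, limma). Its 6 values in the other treated groups lay between 7.88 and 8.09, within the medium range except for the highest and the lowest. POLR1B, the second largest subunit of polymerase I, rose 1.48-fold, and all 3 of its further probe sets rose too, with log2 fold changes from 0.52 to 0.81. DDX21, an RNA helicase that links polymerase I transcription with precursor processing, rose 1.45-fold.

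Among abundant nucleolar proteins, 2 rose and 1 did not pass the test. NCL, or nucleolin, which binds the nascent precursor RNA, read 10.94, 11.03 and 10.96 in medium and 11.72, 11.72 and 11.62 at 25 µg/mL. It rose 1.64-fold (log2 fold change 0.71 ± 0.08 SE, adjusted p = 9e-06, limma). NOLC1, a chaperone of snoRNPs, read 11.07, 10.95 and 10.98 in medium and 11.62, 11.59 and 11.59 at 25 µg/mL, a 1.52-fold rise, and its other probe sets gave larger log2 fold changes of 1.10 and 1.18. NPM1, or nucleophosmin, a chaperone of ribosomal proteins and histones, read 13.70, 13.62 and 13.66 in medium and 13.68, 13.73 and 13.74 at 25 µg/mL. These ranges overlapped, its log2 fold change was 0.05 with a 95% interval from -0.11 to 0.22, and its other probe sets gave 0.01 and -0.03. NPM1 has processed pseudogenes with like sequence and lies near the top of the array's range. The effect of either on its value was not tested.

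The box C/D snoRNP proteins rose in 3 of 3 measured cases. NOP58, a core protein of these methylation guides, had the second largest rise of all members. It read 10.77, 10.83 and 10.69 in medium and 11.94, 11.88 and 11.81 at 25 µg/mL, a 2.17-fold rise (log2 fold change 1.11 ± 0.08 SE, adjusted p = 1.7e-07, limma). Its values in the 2.5 µg/mL and ion groups, 10.73 to 10.95, overlapped those in medium. RRP9, a protein of the U3 snoRNP, rose 1.59-fold, and FBL, or fibrillarin, the methyltransferase of the complex, rose 1.26-fold from a tight set of medium values (11.13, 11.11 and 11.11).

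The box H/ACA proteins, which guide pseudouridylation and share in telomerase, split. GAR1 read 8.72, 8.61 and 8.22 in medium and 9.34, 9.48 and 9.41 at 25 µg/mL, a 1.86-fold rise (log2 fold change 0.89 ± 0.11 SE, adjusted p = 2.7e-05, limma). Medium replicate 3 was the lowest of its 12 values. NHP2 read 10.51, 10.58 and 10.58 in medium and 10.23, 10.25 and 10.32 at 25 µg/mL, a fall to 1.22-fold lower (log2 fold change -0.29 ± 0.08 SE, adjusted p = 0.009, limma). The difference GAR1 minus NHP2 within an array, which no scaling of whole arrays can change, went from -1.79, -1.97 and -2.36 in medium to -0.90, -0.77 and -0.91 at 25 µg/mL. The pair was chosen after its values were seen.

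All 8 members of the small subunit processome rose. UTP20 read 8.12, 7.88 and 7.74 in medium and 8.93, 8.75 and 8.84 at 25 µg/mL, a 1.90-fold rise (log2 fold change 0.93 ± 0.11 SE, adjusted p = 1.2e-05, limma). WDR43 (1.85-fold), UTP15 (1.65-fold) and HEATR1 (1.30-fold) belong to the part that binds the precursor first and links it with polymerase I transcription. The further probe sets of HEATR1 gave log2 fold changes from 0.02 to 0.40, of which only 0.40 was called. UTP15 read 7.33, 7.18 and 7.23 in medium and 8.08, 7.89 and 7.95 at 25 µg/mL. NOP14 rose 1.55-fold, UTP18 1.46-fold and WDR3 1.38-fold. DDX10, a helicase, had the smallest called rise, 1.2-fold, and its call (adjusted p = 0.036, limma) was lost when any 1 of the 6 arrays was left out (0.061 to 0.10).

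**Figure D2:**
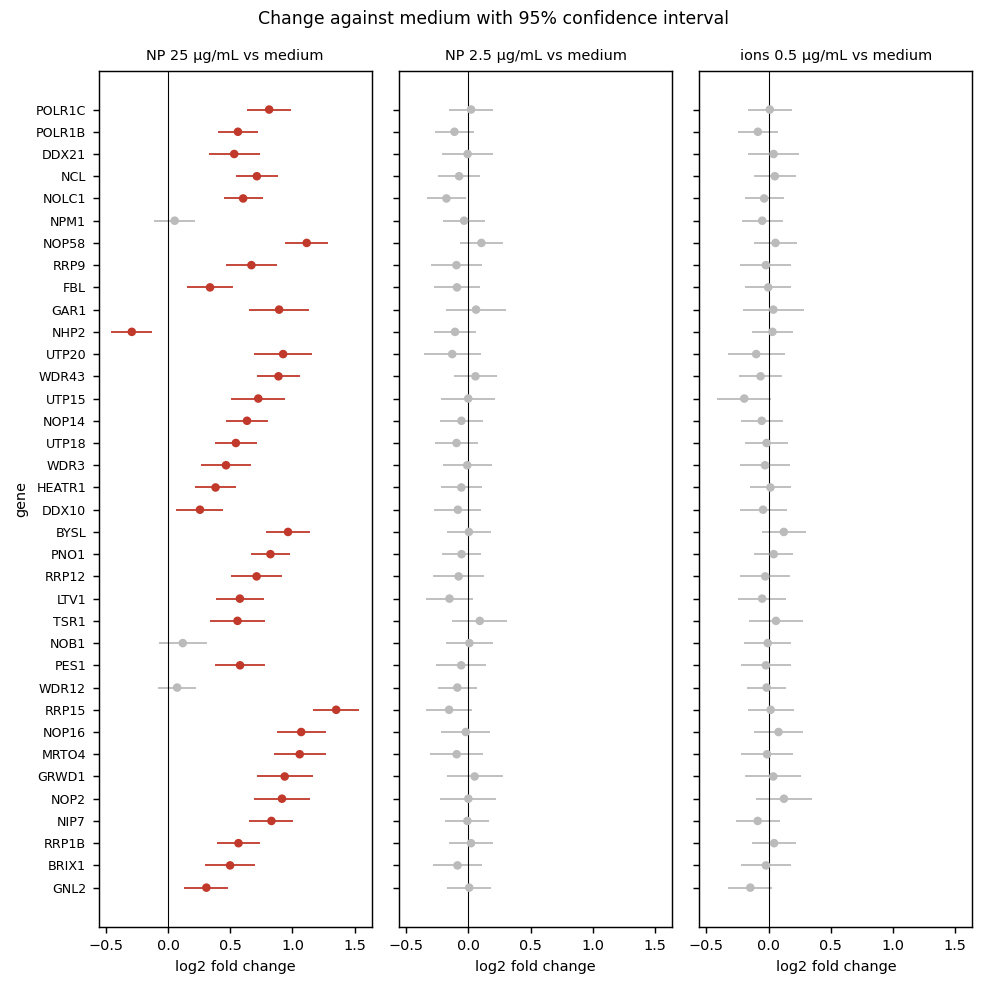
Points are log2 fold changes against medium of the 36 genes and lines their 95% confidence intervals, in 3 panels for the 3 exposures, with coloured points called at an adjusted p under 0.05. At 25 µg/mL 33 genes are coloured, and in the other panels none is and the points lie between -0.20 and 0.12.

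Of 6 factors of late small subunit maturation, which act as the particle moves to the cytoplasm, 5 rose. BYSL, or bystin, read 8.02, 8.17 and 8.04 in medium and 8.98, 9.03 and 9.12 at 25 µg/mL, a 1.95-fold rise (log2 fold change 0.96 ± 0.08 SE, adjusted p = 7.5e-07, limma). PNO1, the partner of the endonuclease NOB1, rose 1.77-fold, whereas NOB1 itself read 9.94, 9.81 and 9.86 in medium and 9.94, 9.99 and 10.03 at 25 µg/mL (log2 fold change 0.12, 95% interval -0.07 to 0.31). The further probe sets of PNO1 gave log2 fold changes of 0.64, called higher, and 0.28, not called. RRP12 rose 1.64-fold and the export adaptor LTV1 1.49-fold. TSR1, a protein of the pre-ribosome related to translational GTPases, rose 1.47-fold by its brightest probe set. Of the others, 2 gave log2 fold changes of 1.28 and 1.28 and the last one 0.07.

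The large subunit factors held the largest rises, and 9 of 9 measured members outside the PeBoW complex were called. RRP15, a nucleolar protein of pre-ribosomes, read 9.08, 9.05 and 9.04 in medium and 10.43, 10.38 and 10.42 at 25 µg/mL. It rose 2.55-fold (log2 fold change 1.35 ± 0.09 SE, adjusted p = 4.9e-08, limma), and its other probe set gave a log2 fold change of 0.43. NOP16 read 9.05, 9.05 and 8.98 in medium and 10.12, 10.11 and 10.07 at 25 µg/mL, a 2.10-fold rise. These groups were far apart relative to their spread, with an SD of 0.04 in medium and 0.03 at 25 µg/mL (n = 3).

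MRTO4, which holds a place on the early large subunit that a stalk protein takes later, read 8.72, 8.67 and 8.59 in medium and 9.67, 9.71 and 9.77 at 25 µg/mL (2.08-fold). GRWD1, a WD-repeat protein, read 7.002, 7.21 and 6.87 in medium and 7.87, 7.88 and 8.14 at 25 µg/mL (1.92-fold). NOP2, a methyltransferase of the large subunit RNA, read 8.59, 8.51 and 8.41 in medium and 9.52, 9.44 and 9.30 at 25 µg/mL (1.89-fold). None of these groups overlapped. NIP7 rose 1.78-fold, RRP1B 1.48-fold and BRIX1 1.41-fold, and GNL2, a nucleolar GTPase, rose 1.24-fold from 8.25, 8.36 and 8.25 to 8.64, 8.61 and 8.55.

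The PeBoW complex, which takes its name from PES1, BOP1 and WDR12, split. PES1 read 8.29, 8.36 and 8.08 in medium and 8.80, 8.78 and 8.88 at 25 µg/mL, a 1.49-fold rise (log2 fold change 0.58 ± 0.09 SE, adjusted p = 0.00021, limma). Its other probe set, dim at 3.77 in medium, went the other way (-0.48), and the call was lost when probe sets were averaged. WDR12 read 10.47, 10.46 and 10.42 in medium and 10.54, 10.56 and 10.47 at 25 µg/mL, with a log2 fold change of 0.07 and a 95% interval from -0.08 to 0.23. PES1 minus WDR12 within an array lay between -2.33 and -2.10 in medium and between -1.77 and -1.59 at 25 µg/mL. This pair, too, was chosen after its values were seen.

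**Figure D3:**
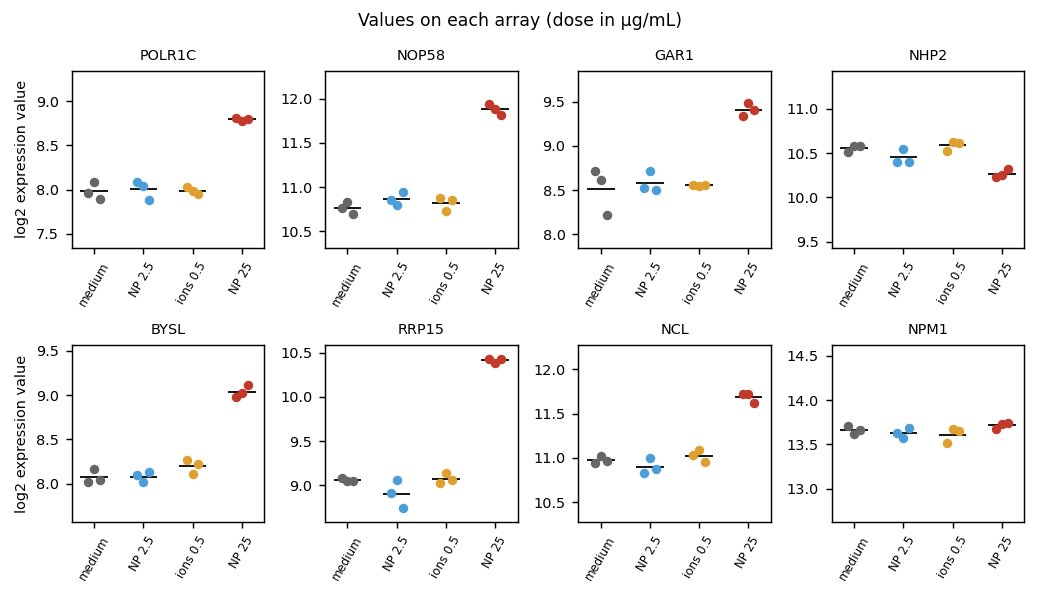
Points are log2 values on the 3 arrays of each group and bars their means, for 8 genes, each on an axis of equal span. POLR1C, NOP58, GAR1, BYSL, RRP15 and NCL are higher at 25 µg/mL than on all other arrays, NHP2 is lower, and NPM1 overlaps.

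The members' further probe sets gave a mixed picture. The 36 members had 74 probe sets, and among the 38 not used above 18 were called higher, 1 lower and 19 not called when all 41097 probe sets of single genes were tested. In that fit 13% of all probe sets were called higher and 15.9% lower, and among those that are not their gene's brightest 12.7% and 13.6%. The lower one was a second probe set of PES1, which read 3.77 in medium, under the median of all probe set values (4.75), and had a log2 fold change of -0.48. Of the 22 genes with several probe sets, 8 had every probe set called higher, and in 7 the signs differed. When probe sets were averaged per gene in place of taking the brightest, 27 members were called higher, and the calls of WDR3, DDX10, LTV1, PES1 and RRP1B were lost (log2 fold changes of 0.20, 0.16, 0.29, 0.05 and 0.20).

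At 2.5 µg/mL nanoparticles, 0 of 36 members passed the test, as did 0% of all genes by limma. The log2 fold changes lay between -0.18 and 0.10 with a median of -0.06, against 0.00 over all genes, and 10 of 36 were above 0. The 95% intervals of all 36 members lay between -0.36 and 0.31, so a change of the size seen in RRP15 or NOP58 at the higher dose was outside every interval. NOLC1 had the smallest unadjusted p, 0.031, with 10.83, 10.81 and 10.83 (log2 fold change -0.18 ± 0.07 SE, adjusted p = 1, limma). It was the 1 member with an unadjusted p under 0.05, where 4.55% of all genes had one. RRP15 came next with 8.91, 9.06 and 8.74 (log2 fold change -0.15, unadjusted p = 0.096). In 5 members, NOLC1, PNO1, LTV1, WDR12 and UTP18, the 3 arrays lay below all medium arrays (13.9%, against 4.51% of all genes), and in TSR1 above them (5.45% of all genes), genes picked out after their values were seen.

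With silver ions at 0.5 µg/mL, again 0 of 36 members and 0% of all genes passed. The log2 fold changes lay between -0.20 and 0.12 with a median of -0.01, and all 95% intervals between -0.41 and 0.35. UTP15 had the smallest unadjusted p, 0.073, with 6.84, 7.20 and 7.12, of which replicate 1 was the lowest of all 12 arrays (log2 fold change -0.20 ± 0.10 SE, adjusted p = 0.83, limma). GNL2 followed with 8.04, 8.18 and 8.19 (log2 fold change -0.15, unadjusted p = 0.095), all below the medium arrays. It was the 1 member whose arrays lay below medium (5.13% of all genes), and 0 members lay above (5.32%). By unadjusted p under 0.05 the count was 0 members, where 6.24% of all genes had one.

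The high dose differed from both mild exposures as it did from medium. Against 2.5 µg/mL, 32 members were higher and 0 lower (13.7% and 20.3% of all genes), with a median of 0.73. In 33 members the arrays lay wholly above (19.6% of all genes), and 26 reached a log2 difference of 0.5 (5.97%). RRP15 had the largest difference, 1.51 ± 0.09 (SE) on the log2 scale, and NHP2, called against medium, had -0.18 with an adjusted p of 0.085 in limma. Against the ions, 32 were higher and 1 lower (13.7% and 18.6% of all genes), with 25 at 0.5 or more (6.47%), a median of 0.66 and 1.34 ± 0.09 (SE) for RRP15 and -0.32 for NHP2. These comparisons share the 25 µg/mL arrays and do not support each other. The silver doses of the particle and ion groups differ, so particle and ionic silver are not compared at a matched dose. Between 2.5 µg/mL particles and the ions 0 members passed, 0 had an unadjusted p under 0.05 (8.77% of all genes by limma), and the arrays of 1 lay above and of 4 below (6.39% and 6.98%), with log2 differences from -0.17 to 0.20 and 95% intervals between -0.36 and 0.41.

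Most genes of the same pathway outside the list were also higher at 25 µg/mL. Of all genes 14.1% were called higher and 19.3% lower. The lists below, too, were chosen with results of these data known. The 7 further lists hold ribosomal RNA synthesis and processing genes and, counted with them, the polymerase III genes. In these lists 115 of 165 measured genes were higher, 7 lower and 43 not called, with a median log2 fold change of 0.38. Of 36 other small subunit processome genes 33 were higher and 0 lower. FCF1, a nuclease-fold protein, and UTP14A rose 2.76-fold and 2.25-fold, and NOM1 1.88-fold. Of 44 other large subunit factors 30 were higher and 1 lower. NOL9, a polynucleotide kinase, rose 2.09-fold, NOC2L 1.99-fold and URB2 1.86-fold, while EFL1, a GTPase that helps release a late assembly factor, was 1.42-fold lower.

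Of 16 other genes of polymerase I transcription, 13 were higher and 1 lower. The promoter factor gene TAF1A rose 1.90-fold, the termination factor gene TTF1 1.77-fold and RRN3, which brings the polymerase to the promoter, 1.76-fold. POLR1A, the largest subunit, rose 1.29-fold and UBTF, the upstream binding factor, 1.29-fold on the probe set used, whereas the mean of the UBTF probe sets turned to -0.12 on the log2 scale. UBTF's call was lost on leaving out either of 2 arrays (adjusted p up to 0.067). POLR1D was 1.22-fold lower, a call lost on leaving out any of 5 of the 6 arrays (adjusted p up to 0.076). Of 20 polymerase III genes 14 were higher and 1 lower: POLR3C rose 1.54-fold, GTF3C4 1.49-fold and BRF2 1.46-fold, and POLR3GL, one of a pair of alternative subunits, was 2.09-fold lower.

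Of 24 nuclear exosome and ribosomal RNA nuclease genes, 13 were higher and 1 lower. EXOSC6, a subunit of the exosome ring, had the largest rise in these lists, 3.67-fold, and POP1 and RPP40, proteins of RNase MRP, rose 1.72-fold and 1.70-fold. EXOSC1 was 1.16-fold lower, a call lost on leaving out any of 5 of the 6 arrays (adjusted p up to 0.10). Of 13 snoRNP assembly genes, 9 were higher and 3 lower. ZNHIT6, NUFIP1 and SHQ1 rose 1.76-fold, 1.60-fold and 1.57-fold, and COIL, ZNHIT3 and PIH1D1 were 1.40-fold, 1.30-fold and 1.25-fold lower. The late small subunit list had 3 of 12 higher, the kinase genes RIOK1 (2.06-fold) and RIOK3 (1.34-fold) and the methyltransferase gene BUD23 (1.53-fold), and 0 lower. The other 9 were not called, and the median log2 fold change of this list was 0.19.

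**Figure D4:**
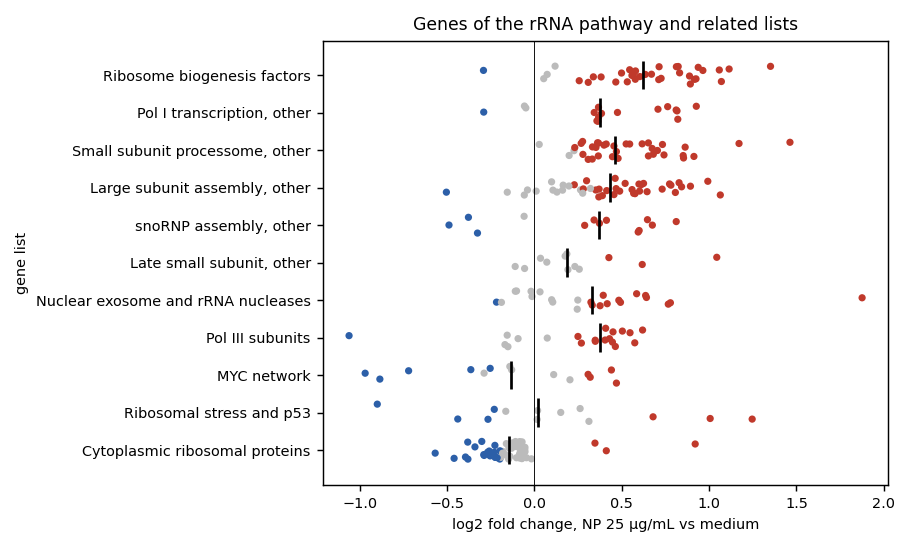
Points are log2 fold changes of single genes at 25 µg/mL nanoparticles against medium in 11 gene lists, red where called higher, blue where called lower and grey where not called, with black bars at the medians. The listed factors have the rightmost median, 0.62. The other rRNA lists and the polymerase III list have medians of 0.19 to 0.46, and the ribosomal proteins lie left of 0 at -0.15.

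The cytoplasmic ribosomal proteins are the parts that these factors assemble. Of 53 measured genes 3 were higher (RPL27A, RPL36A and RPLP2) and 21 lower (14.1% and 19.3% of all genes), with a median of -0.15. The median of the biogenesis factors minus that of the ribosomal proteins, both as differences from medium within an array, was 0.76, 0.84 and 0.78 on the 25 µg/mL arrays and between -0.07 and 0.06 on the 9 others. This within-array difference does not depend on how whole arrays are scaled. However, 44 of the 53 genes read 13 or more in medium, near the top of the array's range, and the effect of this on the size of the difference was not tested. The 3 called higher read far lower in medium, RPL36A 4.13, RPLP2 5.49 and RPL27A 7.30. Many ribosomal protein genes have processed pseudogenes, and 26 of the 79 listed had no probe set of their own, so single values are uncertain.

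**Figure D5:**
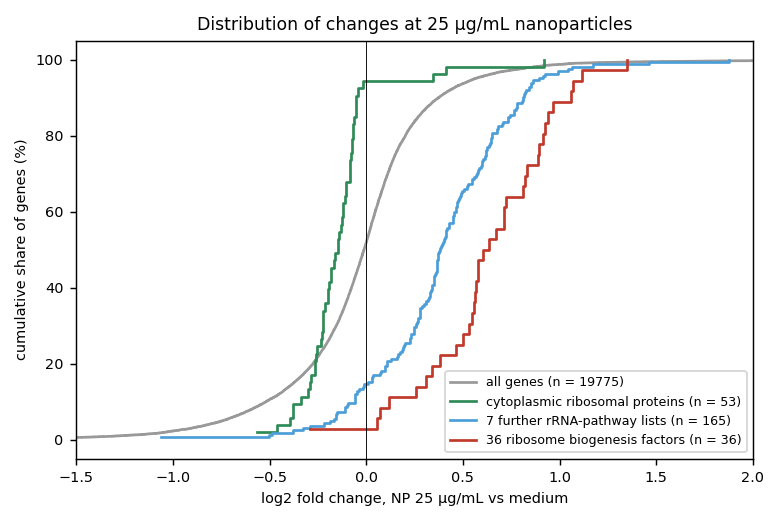
Lines give the cumulative share of genes (percent) up to each log2 fold change at 25 µg/mL nanoparticles against medium. They cover 36 ribosome biogenesis factors, 165 genes of the further lists including polymerase III, 53 cytoplasmic ribosomal proteins and all 19775 genes. The medians are 0.62, 0.38, -0.15 and -0.01.

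The list of the MYC network holds MYC and other partners of MAX, which bind the E-box as pairs, the related MLX family, and further genes tied to MYC. Of its measured genes, 4 of 14 genes were higher and 5 lower (14.1% and 19.3% of all genes). MYC read 9.80, 9.71 and 9.39 in medium and 9.97, 9.93 and 9.96 at 25 µg/mL, a 1.25-fold rise (log2 fold change 0.32 ± 0.10 SE, adjusted p = 0.028, limma). The groups did not overlap, but the call was lost on leaving out any of 4 of the 6 arrays (adjusted p up to 0.15). MXI1, MXD3 and MXD1, which compete with MYC for MAX and repress, were 1.96-fold, 1.85-fold and 1.65-fold lower. MXI1 read 9.48, 9.46 and 9.53 in medium and 8.63, 8.47 and 8.47 at 25 µg/mL. MLXIP, which pairs with MLX, and ZBTB17, a zinc finger protein that MYC binds, rose 1.38-fold and 1.36-fold, and averaging probe sets lost the calls of MLXIP, ZBTB17 and MXD1 (0.15, 0.25 and -0.17 on the log2 scale).

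The E-box share can be set beside the calls. Of the 28 members with a window that were called higher, 13 held CACGTG (46.4%), and of the 4 that were not, 0 did. These 4 are too few to set the shares against each other, and CCGGAAG was also in 0 of them. Among all genes with a window, CACGTG was in 12.3% of those called higher at 25 µg/mL, 8.33% of those called lower and 7.80% of those not called. It was in 25.4% of the 138 windows of the 7 further lists and in 2 of 47 ribosomal protein windows (4.26%). CCGGAAG was in 53.6% of the members called higher, 20.9% of all genes called higher, 15.7% of those called lower and 12.2% of those not called. It was in 40.6% of the windows of the 7 further lists and in 36.2% of those of the ribosomal proteins. A part of either motif in the changes was not tested.

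The list of p53 and ribosomal stress genes split. MDM2, the p53 ligase that free ribosomal proteins bind, had a log2 fold change of 0.02 with a 95% interval from -0.20 to 0.24. CDKN1A, a p53 target and cell cycle inhibitor, rose 2.01-fold, SESN2 2.37-fold and TP53I3 1.60-fold, while SESN1, ZMAT3 and RRM2B were 1.86-fold, 1.36-fold and 1.20-fold lower. The RRM2B call was lost on leaving out any of 4 of the 6 arrays (adjusted p up to 0.17). In all, 3 of 13 genes of this list were higher and 4 lower, where 14.1% and 19.3% of all genes were.

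Other measures moved with the same arrays, and their part in the result was not tested. Of 24 proliferation genes 9 were higher and 11 lower at 25 µg/mL, and their mean level per array lay between 9.52 and 9.57, within the medium range of 9.48 to 9.66. The mean level of 12 enterocyte markers was 6.17 to 6.21 at 25 µg/mL against 6.53 to 6.64 in medium, with 6 lower and 0 higher. Of 9 fibroblast, 6 leukocyte and 5 endothelial markers, 2, 0 and 1 were higher and 2, 2 and 0 lower. Over all genes the shares were 14.1% higher and 19.3% lower. For ACTB, the 3' minus 5' signal, a sign of RNA integrity, was 0.41 to 0.69 at 25 µg/mL and 0.59 to 0.70 in medium. It was highest on replicate 3 at 2.5 µg/mL (0.96) and replicate 3 of the ions (0.95), where the other arrays of these groups lay between 0.45 and 0.73.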

How the data were processed

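Each of 12 RNA samples was labelled as cRNA (250 ng input, per the labels) and put on 1 expression array. The authors deposited log2 expression values. RMA and Partek appear, per the submitters' processing notes, with versions and settings not given in the sources used here. Column means are equal at 5.57, there is no centring per gene, and any further correction is unknown. The table gives no detection calls. The number of arrays limits the precision.

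Of 54675 probe sets, 41097 had 1 gene symbol (41043 matched to RefSeq by gene ID), 1801 had several, and a gene's brightest probe set was used. One limma 3.58.1 model (R 4.3.3) covered the 4 groups, with 8 residual degrees of freedom and 6.25 from the prior, 6 two-sided comparisons and Benjamini-Hochberg adjustment over 19775 genes. It was tested on simulated data. No arrays were identical. Alternatives were quantile normalization, median centring, control scaling, a filter on dim genes, probe set handling, variance models, array weights, thresholds, fits of 2 groups and leaving out each array. The per-array values are given for the 8 largest rises, the fall, the largest change in each role group and the smallest 2 p-values in each mild exposure. Up to 3 called genes in each direction are named in each further list. The members, lists and alternatives were chosen with earlier results of these data known. Figures were drawn with matplotlib 3.10.9.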

Additional observations from a re-analysis of the deposited data

Results flagged for a closer look

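The spike-in controls, which lie outside the gene measurements, were higher at 25 µg/mL nanoparticles than in medium. On the log2 scale the excess was 0.61 for poly-A controls (24 probe sets) and 0.43 for hybridization controls (18 probe sets). The poly-A means on the 25 µg/mL arrays were 6.21, 5.56 and 6.31, and those in medium 5.31, 5.54 and 5.39, so that replicate 2 lay next to the highest medium array. The hybridization means were 10.97, 10.89 and 11.08 at 25 µg/mL and 10.57, 10.43 and 10.66 in medium. Their part in the results was not tested.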

How the results depend on the processing

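The counts of members at 25 µg/mL against medium kept to 31 or 32 higher and 1 lower under quantile normalization, median centring, without dim genes, with every probe set tested, with an intensity trend, with array weights, in a fit of 2 groups and at an adjusted p under 0.01. A log2 fold of at least 0.5 left 26 higher and 0 lower (against the ions, 0 lower), and the mean of probe sets 27 higher. Leaving out each array gave 31 to 31 higher, and medians of 0.60 to 0.65; for 2.5 µg/mL against ions the median was -0.051 to -0.025. With poly-A scaling, members higher and lower were 2 and 4 against medium (median 0.0066), 1 and 4 against 2.5 µg/mL (median -0.018) and 1 and 5 against ions (median -0.13). With hybridization scaling they were 13 and 3 (median 0.19), 19 and 1 (median 0.38) and 13 and 3 (median 0.22). The medians of the mild exposures under poly-A scaling were 0.078 at 2.5 µg/mL, 0.16 for ions and -0.084 between them, and under hybridization scaling -0.14 at 2.5 µg/mL and -0.13 between them. Between them the median was -0.086 with quantile normalization and -0.013 with median centring. Against 2.5 µg/mL the median was 0.79 with quantile normalization and 0.62 with the mean of probe sets (0.62 against ions), and 1 member was lower without dim genes and with an intensity trend (1 each). Scaling shifts all genes of an array alike by construction.

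Single genes at 25 µg/mL turned below 0 with poly-A scaling: POLR1B -0.051, DDX21 -0.081, NPM1 -0.559, NOLC1 -0.009, FBL -0.28, UTP18 -0.067, WDR3 -0.15, HEATR1 -0.23, DDX10 -0.36, LTV1 -0.035, TSR1 -0.054, NOB1 -0.49, PES1 -0.034, WDR12 -0.54, RRP1B -0.046, GNL2 -0.30, BRIX1 -0.11, RIOK3 -0.19, GTF3C4 -0.038, BRF2 -0.065, MLXIP -0.14, ZBTB17 -0.17, MYC -0.29, POLR1A -0.25 and UBTF -0.25. With hybridization scaling NPM1 was at -0.37, FBL -0.089, HEATR1 -0.044, DDX10 -0.17, WDR12 -0.35, GNL2 -0.12, MYC -0.11, POLR1A -0.063 and UBTF -0.059. UBTF was at -0.12 with the mean of its probe sets. The cause of the higher control signals was not tested. No paired analysis was possible because the labels give no replicate numbers that the groups share.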
